A study of Homo sapiens with 6 samples.

Results

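FN1, FBN1, BGN, VCAN, THBS1 and SPP1 encode secreted glycoproteins and proteoglycans of the extracellular matrix. Their signals were followed on 6 Affymetrix arrays of 3 human ovarian cancer cell lines. The 6 genes were chosen by symbol from earlier results of these arrays. Their differences between transfections and their levels in the lines had been seen there. Their values are therefore a description, and test calls on them are not read as evidence. They were represented by 7 probe sets (2 for VCAN) of the 53617 on the array, and were 6 of 14884 genes that could be named. Each line, ES-2, OVCAR-3 or SKOV-3, was measured once after transfection with miR-135a-3p and once after miR-blank, the control. Thus there were 3 arrays per transfection, 2 arrays per line and no second array of any condition. What was transfected (a synthetic RNA or a vector), how much of it and when cells were collected are not given in the sources used here, and nothing says that the arrays came from separate cultures. ES-2 was derived from a clear cell carcinoma, OVCAR-3 from the ascites of a serous carcinoma and SKOV-3 from the ascites of an ovarian adenocarcinoma. All values are log2 signals as deposited, and differences are given as miR-135a-3p minus miR-blank. Signals of different genes come from different probes, so levels are compared only within a gene.

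The extracellular matrix is a network that cells secrete, remodel and grip through integrins and other receptors. Fibronectin (FN1) forms fibrils that cells pull into shape. Fibrillin-1 (FBN1) builds microfibrils that store latent TGF-beta. Biglycan (BGN) is a small leucine-rich proteoglycan, and versican (VCAN) is a large chondroitin sulfate proteoglycan that binds hyaluronan. Thrombospondin-1 (THBS1) and osteopontin (SPP1) are matricellular proteins, which signal to cells rather than give the matrix its strength. In ovarian cancer, matrix made by tumour and stromal cells is known for its part in attachment to the peritoneum.

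A microRNA arm acts through its seed, bases 2 to 8. The arm that the labels name, miR-135a-3p, is the 3′ arm of the MIR135A1 hairpin, at chr3:52294232-52294253 on the minus strand of GRCh38.p14. It is shown with the 3′ arms of the related hairpins MIR135A2 and MIR135B, because the family differs in this region. Sequences are RefSeq's, written 5′ to 3′ with the seed in capitals.
hsa-miR-135a-3p: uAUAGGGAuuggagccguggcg
hsa-miR-135a-2-3p: aUGUAGGGauggaagccaugaa
hsa-miR-135b-3p: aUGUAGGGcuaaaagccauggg
The seed of miR-135a-3p was AUAGGGA, and the other 2 arms shared the seed UGUAGGG. Transcripts of the 6 genes were not searched for seed matches, since no transcript sequences were used here.

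The signal of MIR135A1 separated the transfections in each line. It was 12.57, 12.20 and 11.58 after miR-135a-3p (ES-2, OVCAR-3, SKOV-3), and 1.75, 2.26 and 2.07 after miR-blank. MIR135A1 was the 1 gene called by limma (adjusted p 4.83e-05, mean log2 difference 10.09 ± 0.67, SD, n = 3 lines) of 8620 genes tested, which is 0.0116%. Its miR-blank signals lay below the 25th percentile of their arrays (2.79 to 2.87) and were not shown to be above background, so the size of that difference is not exact. None of the 6 matrix genes was called, and nothing is read from that, because the genes were chosen with this contrast known. Array medians lay between 4.16 and 4.23 and serve here as a rough mark, since no detection calls were used.

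The 6 genes did not differ in 1 common direction. BGN and VCAN read lower after miR-135a-3p in all 3 lines, and FBN1 read higher in all 3. FN1, THBS1 and SPP1 differed in sign between lines. Each gene was past 2-fold in at least 1 line, and 8 of the 18 values by gene and line were past 2-fold. Among all genes tested, the share past 2-fold was 4.0% for SKOV-3 and 0.673% for each of the other lines. The 6 genes were chosen with these differences known, so their counts are a description and are not read against those shares. In bulk RNA, fewer cells that express a gene and less RNA per cell cannot be told apart.

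**Figure D1:**
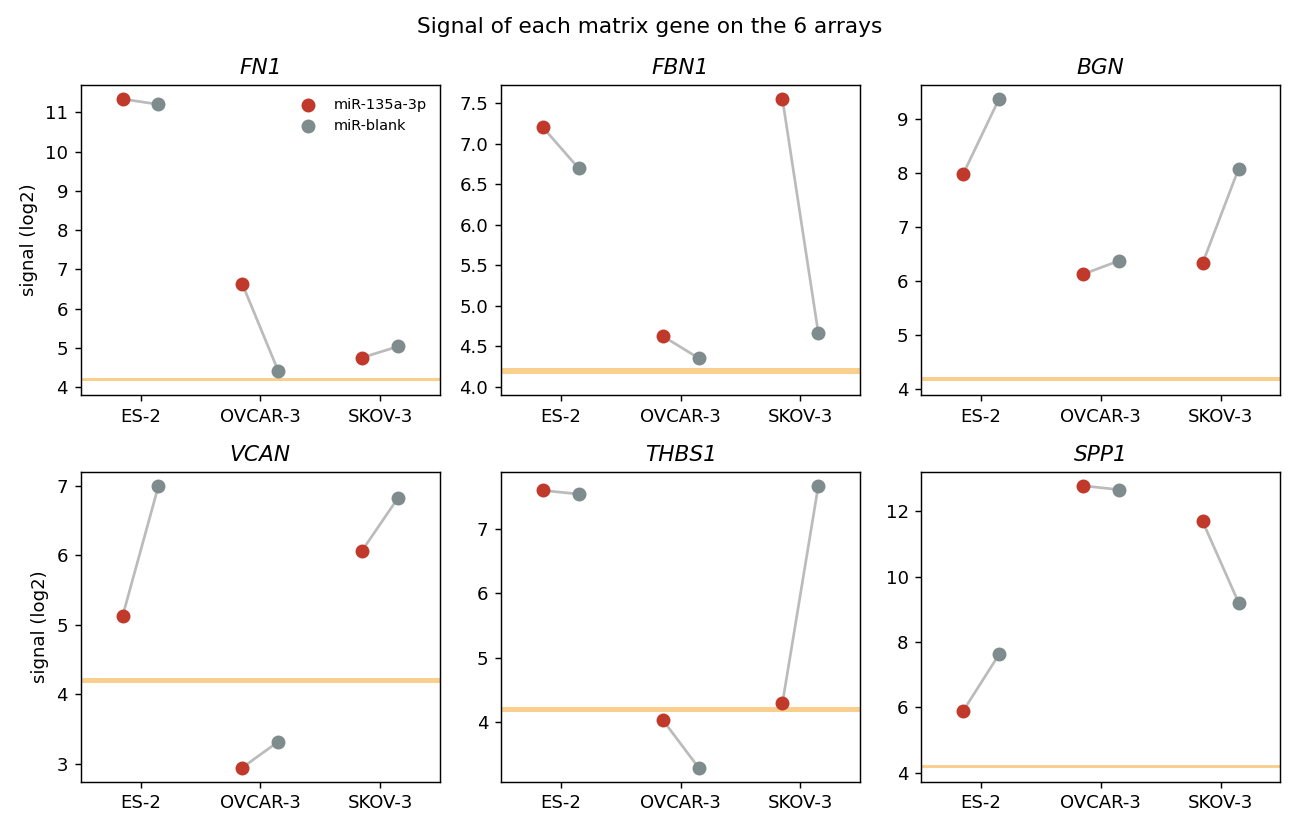
Log2 signal of each of the 6 genes (panels, each with its own vertical axis) for ES-2, OVCAR-3, then SKOV-3. Red points are the miR-135a-3p array and grey points the miR-blank array of a line, joined by a line, and the orange band spans the array medians, 4.16 to 4.23. BGN and VCAN slope the same way in every line, while THBS1 and FBN1 part widely in SKOV-3.

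Among the structural glycoproteins, FN1 read 11.34 for ES-2, 6.63 for OVCAR-3 and 4.75 for SKOV-3 after miR-135a-3p. After miR-blank it read 11.20, 4.41 and 5.04 in the same lines. FN1 was thus highest in ES-2 on both arrays, and OVCAR-3 stood above SKOV-3 after miR-135a-3p but below it after miR-blank. The difference was 0.14 for ES-2, 2.22 (4.65-fold) for OVCAR-3 and −0.29 for SKOV-3, a mean of 0.69 ± 1.34 (SD, n = 3 lines). The spread over lines was larger than the mean, and the mean was −0.07 without OVCAR-3. In OVCAR-3 the difference of FN1 stood at rank 4 from the highest of 8620 genes, starting from a miR-blank signal close to the array median.

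FBN1 read 7.20 for ES-2, 4.63 for OVCAR-3 and 7.55 for SKOV-3 after miR-135a-3p, and 6.69, 4.35 and 4.66 after miR-blank. SKOV-3 therefore resembled OVCAR-3 after miR-blank and lay above ES-2 after miR-135a-3p. Both OVCAR-3 signals and the SKOV-3 miR-blank signal were close to the array median, and no detection calls set them apart from background. The difference was 0.51 for ES-2, 0.27 for OVCAR-3 and 2.89 (7.43-fold) for SKOV-3, a mean of 1.22 ± 1.45 (SD, n = 3 lines). Without SKOV-3 the mean difference of FBN1 was 0.39, so its size came largely from 1 pair of arrays. FBN1 stood at rank 7 from the highest in SKOV-3 and at rank 187 in ES-2.

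Of the proteoglycans, BGN read 7.98, 6.13 and 6.33 after miR-135a-3p (ES-2, OVCAR-3, SKOV-3), and 9.36, 6.38 and 8.07 after miR-blank. All 6 signals lay above the array medians. Within each line the miR-135a-3p array was the lower one. After miR-135a-3p, OVCAR-3 minus SKOV-3 was −0.21, against −1.70 after miR-blank. The difference of BGN was −1.39 for ES-2, −0.25 for OVCAR-3 and −1.74 for SKOV-3, a mean of −1.13 ± 0.78 (SD, n = 3 lines). These correspond to 2.62-fold lower for ES-2, 1.19-fold lower for OVCAR-3 and 3.34-fold lower for SKOV-3. Leaving out 1 line moved the mean between −1.56 and −0.82.

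VCAN read 5.12, 2.94 and 6.07 after miR-135a-3p (ES-2, OVCAR-3, SKOV-3), and 7.0, 3.32 and 6.83 after miR-blank, on the brighter of its probe sets. In OVCAR-3 both signals were under the array median, and no detection calls set them apart from background. The difference was −1.88 (3.68-fold lower) for ES-2, −0.37 for OVCAR-3 and −0.76 for SKOV-3, a mean of −1.0 ± 0.78 (SD, n = 3 lines). Without ES-2 the mean of VCAN was −0.57. For VCAN, ES-2 minus SKOV-3 was −0.95 after miR-135a-3p and 0.17 after miR-blank. The second VCAN probe set was below the array median on all 6 arrays, with differences of −1.06, 0.0031 and −0.07 for ES-2, OVCAR-3, then SKOV-3.

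For comparison, 1157 genes, 13.4% of those tested, were lower after miR-135a-3p in all 3 lines, as BGN and VCAN were. The direction of these 2 genes was known when they were chosen, so their count is not read against that share.

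The matricellular genes differed in sign between lines. THBS1 read 7.60, 4.04 and 4.29 after miR-135a-3p (ES-2, OVCAR-3, SKOV-3), and 7.55, 3.29 and 7.68 after miR-blank. In SKOV-3 it stood level with ES-2 after miR-blank and close to OVCAR-3, near the array median, after miR-135a-3p. The difference was 0.06 for ES-2, 0.74 for OVCAR-3 and −3.39 (10.5-fold lower) for SKOV-3, where THBS1 stood at rank 3 from the lowest. Both OVCAR-3 signals of THBS1 were also under the array median. The mean of −0.86 ± 2.21 (SD, n = 3 lines) rested on SKOV-3, and without that line it was 0.40.

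SPP1 read 5.89, 12.78 and 11.68 after miR-135a-3p (ES-2, OVCAR-3, SKOV-3), and 7.62, 12.66 and 9.21 after miR-blank. The order of the lines, OVCAR-3, SKOV-3, ES-2 from high to low, was the same in both transfections. SPP1 differed by −1.73 (3.32-fold lower) for ES-2, 0.12 for OVCAR-3 and 2.48 (5.57-fold higher) for SKOV-3. For SPP1, ES-2 minus SKOV-3 was −5.80 after miR-135a-3p and −1.59 after miR-blank. Its mean of 0.29 ± 2.11 (SD, n = 3 lines) averages these opposite differences, and without SKOV-3 it was −0.81.

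Within single lines, 0 of the 6 genes were past 2-fold higher and 3 past 2-fold lower in ES-2, 1 higher and 0 lower in OVCAR-3, and 2 higher and 2 lower in SKOV-3. Over all genes tested, 0.673% were past 2-fold for ES-2, 0.673% for OVCAR-3 and 4.0% for SKOV-3. The matrix genes were chosen by these differences, and the shares are given only as a scale. With 1 array per condition, none of these differences has a replicate check.

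**Figure D2:**
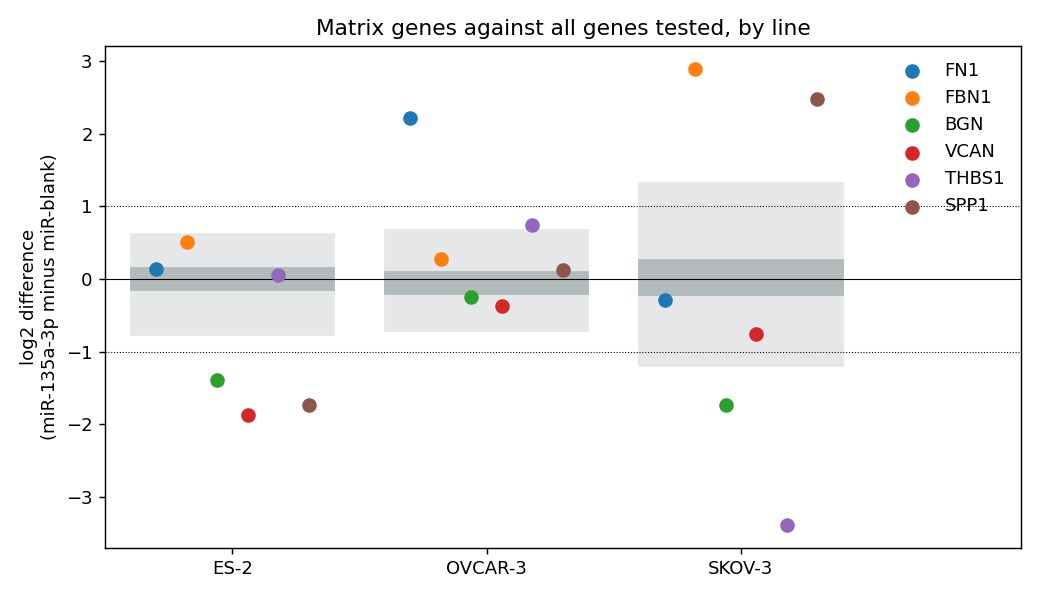
Log2 difference, miR-135a-3p minus miR-blank, of the 6 genes (coloured points) in each line. The light boxes span the 1st to 99th percentile and the dark boxes the 25th to 75th percentile of the 8620 genes tested, and dotted lines mark 2-fold. The light box runs from −0.78 to 0.62 for ES-2, −0.72 to 0.68 for OVCAR-3 and −1.20 to 1.33 for SKOV-3, and the points past 2-fold lie outside it.

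Values just inside and outside 2-fold show how the genes fell around that threshold. BGN in ES-2, at −1.39, was the nearest value past it, and VCAN in SKOV-3, at −0.76, and THBS1 in OVCAR-3, at 0.74, were the nearest short of it.

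The window of 250 bases before the RefSeq start is given for 4 genes. THBS1 and FBN1 had the widest SKOV-3 differences, in opposite directions, and BGN and VCAN were those lower in every line. Capitals mark the motifs found on either strand among 10 searched. These were the TATA box as TATAAA, the CCAAT box by its name, SP1 as GGGCGG and EGR1 as GCGNGGGCG. AP-1 was searched as TGANTCA, the cyclic AMP response element (CRE) as TGACGTCA and TEAD as GGAATG. RUNX was searched as AACCACA, TCF as CTTTGAA and SMAD as CAGACA. The motifs were chosen after the values and the windows had been seen. The windows, on GRCh38.p14, are chr15:39580829-39581078 on the plus strand for THBS1 and chr15:48644971-48645220 on the minus strand for FBN1. Those of BGN and VCAN are chrX:153494730-153494979 and chr5:83471494-83471743, both on the plus strand.
THBS1: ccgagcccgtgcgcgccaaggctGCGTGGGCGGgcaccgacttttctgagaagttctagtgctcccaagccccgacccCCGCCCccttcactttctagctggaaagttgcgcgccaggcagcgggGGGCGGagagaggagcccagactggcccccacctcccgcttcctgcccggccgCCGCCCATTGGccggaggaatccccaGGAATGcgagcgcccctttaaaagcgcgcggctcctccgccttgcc
FBN1: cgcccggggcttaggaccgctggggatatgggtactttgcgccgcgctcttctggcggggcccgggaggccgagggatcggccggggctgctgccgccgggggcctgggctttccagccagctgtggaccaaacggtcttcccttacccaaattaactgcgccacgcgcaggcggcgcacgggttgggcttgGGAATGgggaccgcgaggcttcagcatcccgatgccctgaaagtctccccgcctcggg
BGN: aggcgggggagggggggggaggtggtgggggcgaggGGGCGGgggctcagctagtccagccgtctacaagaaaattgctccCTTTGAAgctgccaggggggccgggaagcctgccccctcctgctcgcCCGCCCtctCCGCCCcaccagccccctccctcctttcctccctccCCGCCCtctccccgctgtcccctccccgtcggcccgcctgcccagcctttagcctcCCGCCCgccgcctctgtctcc
VCAN: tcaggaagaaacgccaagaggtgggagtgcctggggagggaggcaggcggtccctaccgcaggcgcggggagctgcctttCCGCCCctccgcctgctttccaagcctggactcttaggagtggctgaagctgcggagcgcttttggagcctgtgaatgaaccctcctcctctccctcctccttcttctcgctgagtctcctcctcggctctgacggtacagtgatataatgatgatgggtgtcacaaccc
The THBS1 window held 1 EGR1 motif, 227 to 219 bases before the start, which overlapped 1 of its 4 SP1 motifs. It also held a CCAAT box (ATTGG on the strand shown, directly after an SP1 motif) and a TEAD motif, which lay 46 to 41 bases before the start. The 1 motif in the FBN1 window was a TEAD motif, 58 to 53 bases before the start. BGN had 5 SP1 motifs and 1 TCF motif, and VCAN had 1 SP1 motif. In the windows not shown, FN1 had 6 SP1 motifs, some overlapping each other, a CCAAT box and a CRE, and SPP1 had a RUNX and a SMAD motif.

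Shares over all 35116 windows of this length give the scale of these matches. SP1 motifs occurred in 42.6% of windows, CCAAT in 32.0%, SMAD in 13.6%, TEAD in 11.9%, EGR1 in 8.41%, TCF in 3.80%, RUNX in 3.65% and CRE in 1.65%. AP-1 motifs (6.57%) and TATAAA (10.7%) were in none of the 6 windows. G and C made up 76.4% of the FN1 window, 74.0% of BGN, 69.6% of FBN1 and of THBS1, 60.8% of VCAN and 44.8% of SPP1, where the median window had 58.0%. CpG dinucleotides numbered 32 in FN1 and 3 in SPP1, against a median of 11. SPP1 was thus the 1 gene of the 6 below the median in both.

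The range of the 3 line means ran from 2.42 (BGN) to 6.37 (FN1). The level over the 2 arrays of a line is given as the mean with the distance of either array from it. FN1 was 11.27 ± 0.07 for ES-2, 5.52 ± 1.11 for OVCAR-3 and 4.90 ± 0.14 for SKOV-3, and OVCAR-3 and SKOV-3 overlapped. FBN1 was 6.95 ± 0.25, 4.49 ± 0.14 and 6.11 ± 1.45 in these lines, and ES-2 and SKOV-3 overlapped. BGN was 8.67 ± 0.69, 6.25 ± 0.12 and 7.20 ± 0.87, with SKOV-3 overlapping both neighbours.

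VCAN was 6.06 ± 0.94 for ES-2, 3.13 ± 0.19 for OVCAR-3 and 6.45 ± 0.38 for SKOV-3, and ES-2 and SKOV-3 overlapped. THBS1 was 7.57 ± 0.03, 3.66 ± 0.37 and 5.98 ± 1.69, with ES-2 and SKOV-3 overlapping. SPP1 was 6.75 ± 0.87, 12.72 ± 0.06 and 10.45 ± 1.24, and the 3 lines did not overlap. OVCAR-3 had the lowest line mean of FBN1, BGN, VCAN and THBS1 and the highest of SPP1.

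Between ES-2 and OVCAR-3, limma called all 6 matrix genes (adjusted p under 0.05, change of 2-fold or more), 5 higher and 1 (SPP1) lower in ES-2, against 16.5% of all genes. Between ES-2 and SKOV-3 it called 3, FN1 and BGN higher and SPP1 lower in ES-2, against 12.1%. Between OVCAR-3 and SKOV-3 it called 1, VCAN, lower in OVCAR-3, against 14.6%. The levels in the lines were known when the genes were chosen. These counts are therefore a description and are not read against the shares of all genes. FBN1, VCAN and THBS1 passed the filter of a mean of 5 through ES-2 and SKOV-3, since their OVCAR-3 signals were below 5, and FN1 had a mean of 4.90 in SKOV-3. The error of these contrasts includes the response to transfection, through the spread of the 2 arrays of a line. THBS1, for example, differed between OVCAR-3 and SKOV-3 by −0.25 after miR-135a-3p and by −4.38 after miR-blank, and was not called. Leaving out single arrays moved the last count, 1, to between 2 and 4. It was 0 under a stricter filter (mean of 6 or more) and when probe sets of a gene were averaged, where VCAN was not tested.

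Other genes of the matrix were taken from 6 lists of glycoproteins, proteoglycans, glycosaminoglycan synthesis, receptors, assembly and cleavage, and TGF-beta signalling. The lists held 235 genes, of which 170 had a named probe set and 110 passed the filter. They were drawn up with earlier results of these data known. limma called 0 of the 110 between the transfections (6 at an unadjusted p under 0.05), against 0.0116% of all genes, and 251 of all genes had such a p. Higher in all 3 lines were 18 of the 110 and lower in all 3 were 11, against 822 and 1157 of the 8620. The median of the mean differences was 0.0097, against −0.0097 over all genes.

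In single lines, 15 of the 110 genes were past 2-fold, and IGFBP7 was so in 2 lines. In SKOV-3, 3 were higher and 8 lower, together 11 of 110 genes against 4.0% of all genes. In ES-2, 0 were higher and 3 lower (2.73% against 0.673%), and in OVCAR-3, 0 were higher and 2 lower (1.82% against 0.673%). The glycoprotein list held most of them in SKOV-3, with 3 higher and 5 lower of 34.

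**Figure D3:**
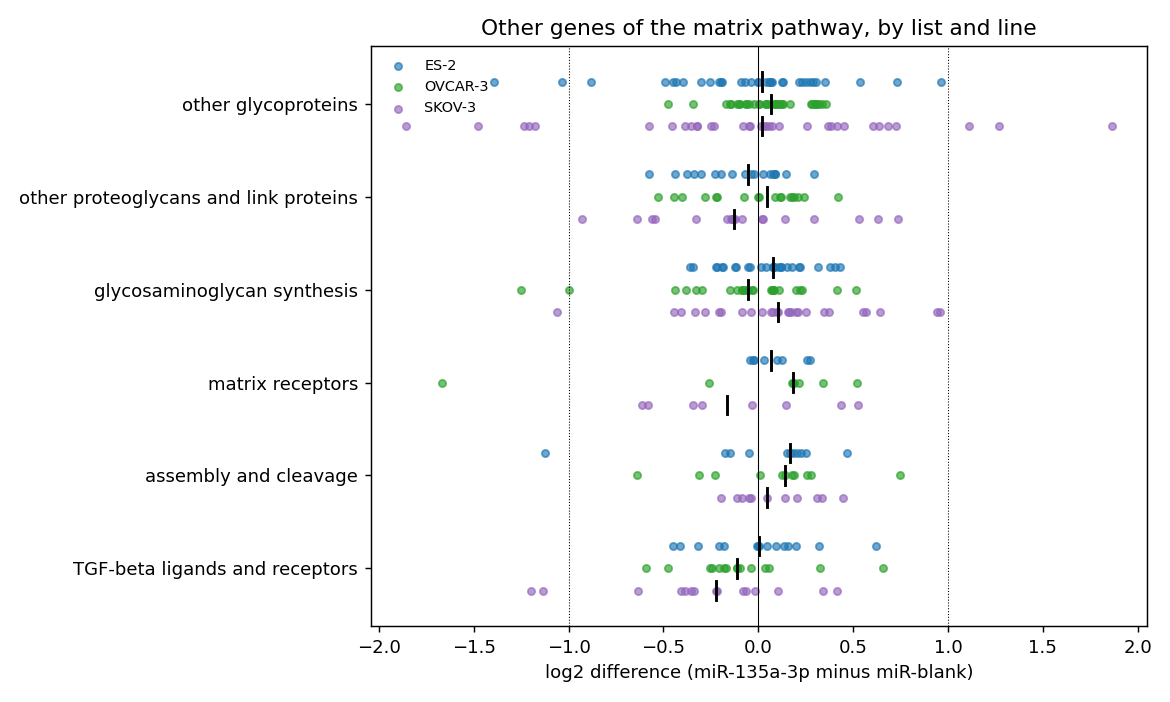
Log2 difference, miR-135a-3p minus miR-blank, of the other tested genes of each list, in ES-2 (blue), OVCAR-3 (green) and SKOV-3 (purple). Each point is 1 gene, black ticks are list medians and dotted lines mark 2-fold. The glycoproteins spread widest in SKOV-3, and the list medians lie between −0.22 and 0.19.

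Examples from the glycoprotein list give the size of these differences in both directions. Nidogen-2 (NID2), which links laminin to collagen IV networks, read 4.25, 4.26 and 8.14 after miR-135a-3p (ES-2, OVCAR-3, SKOV-3), and 4.17, 3.96 and 6.28 after miR-blank. PXDN, a peroxidase that crosslinks collagen IV, had differences of 0.04, 0.34 and 1.27 in these lines. ECM1 had 0.35, 0.28 and 1.11, and OLFML2A −0.49, −0.10 and −1.24. These 4 were the glycoproteins of the list with the same sign in all lines and the widest means, and each had a limma adjusted p of 0.999. Nidogen-1 (NID1) differed by −1.39 (ES-2) and 0.37 (SKOV-3). EFEMP1, a fibulin of elastic fibres, differed by 0.96 (ES-2) and −1.48 (SKOV-3), and EDIL3, an integrin ligand, had −1.21 in SKOV-3. TINAGL1 read 5.30 after miR-135a-3p and 7.16 after miR-blank in SKOV-3, a difference of −1.86.

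Of 18 other proteoglycans and link proteins tested, 0 were past 2-fold in any line, against 0.673% of all genes in ES-2 and in OVCAR-3 and 4.0% in SKOV-3. With 18 genes, a count of 0 is near these shares, so nothing is read from it. The list had 35 named genes, and those under the filter are outside this count. The proteoglycan lumican (LUM), also under the filter, differed by −3.22 in SKOV-3 and is given below with the fibroblast markers. The cell surface proteoglycan SDC1 had the widest mean among those with 1 sign, 0.40 ± 0.36 (SD, n = 3 lines), followed by the link protein HAPLN3 at −0.35 ± 0.19 and the brain proteoglycan BCAN at −0.20 ± 0.11. In glycosaminoglycan synthesis, PAPSS2, which makes the sulfate donor, differed by 0.31 for ES-2, 0.23 for OVCAR-3 and 0.37 for SKOV-3. CHST7 had a mean of 0.28, CSGALNACT2, which starts chondroitin chains, 0.25, and CHST12 −0.24. All had a limma adjusted p of 0.999.

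Of the receptors, CD47, a receptor of thrombospondin-1, read 9.15, 3.49 and 9.15 after miR-135a-3p (ES-2, OVCAR-3, SKOV-3), and 9.05, 5.16 and 8.71 after miR-blank. Its difference of −1.67 in OVCAR-3 ended below the array median. CD44, which binds hyaluronan and osteopontin, had −0.02, 0.34 and 0.52. The receptors with the same sign in all lines were the collagen receptor DDR1, with a mean of −0.21, and the hyaluronan receptor HMMR, with 0.20. In matrix assembly, the crosslinking enzyme LOX had a mean of 0.20 ± 0.06 (SD, n = 3 lines) and the protease FURIN 0.17. In TGF-beta signalling, SMAD3 had a mean of −0.47, the latent TGF-beta binding proteins LTBP4 −0.30 and LTBP3 −0.15, and SKIL −0.27. None of these passed the limma test.

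Between lines, of the 110, 28 had a higher and 10 a lower level in ES-2 than OVCAR-3, 34.5% against 16.5% of all genes. Between ES-2 and SKOV-3, 15 were higher and 20 lower in ES-2, 31.8% against 12.1%. Between OVCAR-3 and SKOV-3, 8 were higher and 32 lower in OVCAR-3, 36.4% against 14.6%. The lists were chosen with earlier results of these data known, and the difference between these shares was not tested. In both contrasts with OVCAR-3, more of the 110 were lower than higher in that line. Over all genes, ES-2 was above OVCAR-3 in 746 and below it in 674, and OVCAR-3 was above SKOV-3 in 483 and below it in 772.

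The list genes with the widest range of line means are given as levels with no test, since that range chose them and some passed the filter through the line where they were high. Line means below the array medians, here and in the next paragraph, were not shown to be above background. Among these were EDIL3, HAS2 and CHST15 in OVCAR-3, DDR2 in SKOV-3 and SMAD6 in ES-2. Tenascin-C (TNC) had line means of 9.51 for ES-2, 4.2 for OVCAR-3 and 4.59 for SKOV-3. NID1 was highest in OVCAR-3 at 10.27, with ES-2 at 5.39 and SKOV-3 at 6.31, and EDIL3 highest in SKOV-3 at 8.84, with ES-2 at 4.44 and OVCAR-3 at 3.23. Endocan (ESM1) was 10.92, 4.29 and 4.37 for ES-2, OVCAR-3, then SKOV-3. The glypicans differed, with GPC6 at 6.46, 9.05 and 4.99 and GPC4 at 4.39, 4.35 and 7.84, and SDC4 was 9.55, 8.88 and 10.60. The hyaluronan synthase HAS2 was 5.92, 3.44 and 8.66.

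CD44 was 8.06 for ES-2, 2.92 for OVCAR-3 and 7.16 for SKOV-3 (its OVCAR-3 signals, 3.09 after miR-135a-3p and 2.74 after miR-blank, lay below the array medians), and the growth factor receptor EGFR was 9.73, 4.55 and 9.0. DDR2, a receptor of fibrillar collagen, was 8.20, 4.23 and 3.9. LOX was 10.90, 4.92 and 6.30, LOXL1 9.51, 6.35 and 7.45, LOXL2 9.49, 6.54 and 9.55, and the protease HTRA1 7.37, 4.63 and 7.67. Of the sulfotransferases, CHST15 was 4.24, 3.93 and 7.31 and CHST7 7.10, 4.99 and 7.30. Of TGF-beta signalling, SMAD6 was 3.71, 7.53 and 5.03, SMAD7 4.85, 4.25 and 6.69, BMP4 6.53, 4.21 and 4.92 and LTBP1 5.25, 4.17 and 6.31.

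For each of the 6 genes, the 3 genes with the nearest profile were named from the 7936 protein-coding genes tested. Likeness was the root mean square (RMS) difference over the 6 arrays, after each gene was centred on its own mean. It is a description of 6 arrays that share lines and transfections, with no test. With so many genes and 6 arrays, a high r follows in part from picking the nearest. The nearest to SPP1 was the cancer-testis gene SAGE1 (RMS 0.54, Pearson r 0.995), which differed by −1.01, −0.12 and 2.58 for ES-2, OVCAR-3, then SKOV-3. PARD6G (0.90) and GPR158 (0.90) followed. The nearest to FBN1 was CD68, a lysosomal protein also used as a macrophage marker (0.38, r 0.959), with −0.25, −0.39 and 2.24, followed by PTGFRN (0.41) and BCL2 (0.48).

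The nearest to BGN was TNS3 (0.42, r 0.937), with −0.10, 0.02 and −1.57, followed by IPO7 (0.49) and SERINC2 (0.50). SERINC2 shared with BGN a wide difference in ES-2, −2.09, and had −0.52 in SKOV-3. The nearest to THBS1 was EFEMP1 (0.65, r 0.940), followed by KRCC1 (0.73), with −3.41 in SKOV-3, and NRP1 (0.77). The nearest to FN1 were ANKRD1 (0.57, r 0.981), MME (0.60) and ESM1 (0.75), and those to VCAN were POPDC3 (0.52, r 0.953), EFNA5 (0.53) and ZNF544 (0.55). None of the 3 genes near VCAN had a difference past 2-fold in ES-2, where VCAN had −1.88.

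**Figure D4:**
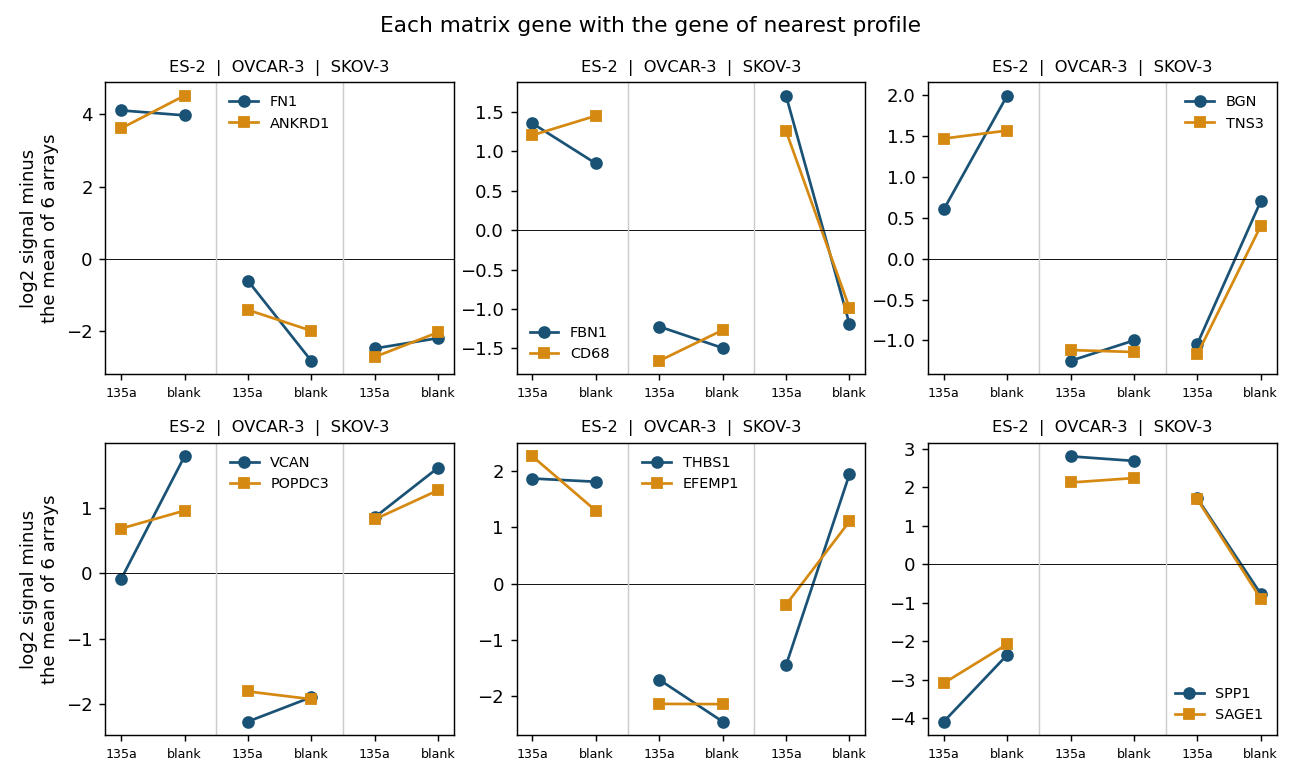
Log2 signal minus the mean of the 6 arrays for each matrix gene (blue circles) and the gene of nearest profile (orange squares). In each panel the miR-135a-3p array stands left of the miR-blank array of its line, and the lines run ES-2, OVCAR-3, SKOV-3 from left to right. SPP1 and SAGE1 slope the same way in ES-2 and SKOV-3, whereas VCAN parts from POPDC3 in ES-2.

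Markers of other cell types were read beside these results. Of 10 fibroblast markers, 5 were named, and their summed log2 level was 18.3 to 19.3 over the miR-135a-3p arrays and 18.8 to 20.9 over the miR-blank arrays. On each array 2 or 3 of the 5 lay above the array median. The small leucine-rich proteoglycan lumican (LUM) read 2.84 after miR-135a-3p and 6.05 after miR-blank in SKOV-3, a difference of −3.22 in the line where BGN had −1.74 and THBS1 −3.39. The other 4 differed there by 0.66 (DPT), 0.15 (THY1), 0.12 (DCN) and −0.37 (PDPN). In ES-2, where BGN had −1.39 and VCAN −1.88, THY1 differed by −1.13, LUM by −0.07, DPT by 0.32, DCN by 0.19 and PDPN by 0.18. In OVCAR-3 they lay between −0.17 (PDPN) and 0.63 (LUM). DCN, a defining fibroblast proteoglycan, read 1.89 to 2.21 on all 6 arrays. The part of these markers in the matrix results was not tested.

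Of 11 leukocyte markers, 7 were named, with sums of 30.7 to 34.2 after miR-135a-3p and 29.9 to 34.3 after miR-blank. CD14 (3.40 to 3.74), CD163 (2.35 to 3.04) and LYZ (2.35 to 3.35) lay below the array medians on all 6 arrays. CD68 (7.29 to 10.40), TYROBP (4.97 to 5.87) and CSF1R (4.23 to 4.89) lay above them on all 6, and LAPTM5 (3.91 to 4.27) lay around them. In SKOV-3, where FBN1 had 2.89, CD68 differed by 2.24 and TYROBP by 0.70, and the other 5 lay between −0.68 (CD163) and 0.08 (CD14). In OVCAR-3, where FN1 had 2.22, CSF1R differed by 0.66 and TYROBP by 0.45, and the other 5 lay between −0.39 (CD68) and 0.16 (LYZ). Of 10 endothelial markers, 6 were named, with sums of 28.1 to 33.3 after miR-135a-3p and 29.1 to 32.9 after miR-blank. Their differences lay between −0.43 (KDR, ES-2) and 0.52 (KDR, OVCAR-3), and TIE1 read 8.27 after miR-135a-3p and 8.38 after miR-blank in ES-2.

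Of 12 carcinoma markers, 9 were named and 7 tested. KRT18 read 9.36 to 10.47 on all arrays, EPCAM 3.78 to 4.32, near the array medians, and PAX8 8.12 after miR-135a-3p and 8.80 after miR-blank in SKOV-3 but 4.12 to 4.80 in the other lines. In SKOV-3, where 4 of the 6 matrix genes were past 2-fold, 3 of the 7 were past 2-fold (42.9%, against 4.0% of all genes), with MSLN at 1.41, WT1 at 1.0 and KRT7 at −1.53. The rest of the 7 lay there between −0.68 (PAX8) and 0.70 (FOLR1). The markers were chosen after their values were seen, so the shares are given only as a scale. KRT7 was also past 2-fold in OVCAR-3, at 1.03, and 0 of the 7 were in ES-2. The part of the leukocyte, endothelial and carcinoma markers in the matrix results was not tested.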

How the data were processed

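RNA of 3 ovarian cancer lines was measured on 6 whole-transcript arrays, 1 per line and transfection. The authors deposited log2 signals of 53617 probe sets. Per the submitters' processing notes, the tools were RMA, Transcriptome Analysis Console 3.0 and Affymetrix Expression Console 1.4, whose roles are not given. RMA equalises array distributions, so a shift of most genes would be removed. No detection calls were used, and precision is limited by having so few arrays.

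Symbols came from the platform annotation and RefSeq (GRCh38.p14), which gave 16098 with 1 symbol, 0 with several and 37519 unnamed here. The probe set with the highest mean was kept where a gene had more than 1 (779 genes), and the 8620 genes with a mean log2 signal of at least 5 were tested. A linear model (limma 3.58.1 under R 4.3.3, eBayes, two-sided p with Benjamini-Hochberg adjustment over all 8620 genes) compared the transfections with the cell line as a block, and the lines with the transfection as a block. The pairing comes from the shared cell line, and paired deviations from group means correlated at 0.90 (ES-2), 0.91 (OVCAR-3) and 0.76 (SKOV-3). P-values measure only the spread between these samples, which may be technical. The code was tested on simulated data.

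The members, gene lists and motifs were chosen with earlier results of these data known. Named besides the 6 genes were, per list, up to 4 genes of 1 sign in all lines with the widest mean difference, up to 4 with the widest range of line means, and the 3 nearest profiles of each member. IGFBP7 was named for passing 2-fold in 2 lines and TINAGL1 for its difference in SKOV-3. These genes and the marker genes were chosen after their values were seen. Alternatives were another filter, other normalizations, an intensity trend, the mean over probe sets, no block, and leaving out arrays or lines.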

Additional observations from a re-analysis of the deposited data

Results flagged for a closer look

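In 3 genes the differences, miR-135a-3p minus miR-blank, had opposite signs in different lines, and the gap between the lines was not tested. For THBS1 the difference of OVCAR-3 exceeded that of SKOV-3 by 4.13. For SPP1 the difference of SKOV-3 exceeded that of ES-2 by 4.21. For FN1 the difference of OVCAR-3 exceeded that of SKOV-3 by 2.5. Each line had 1 array per transfection, and these genes were chosen with such differences known.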

How the results depend on the processing

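Under the other normalizations the mean differences of the 6 genes kept their sign and moved by at most 0.0293. Their differences within a line moved by at most 0.0565. The filters, the intensity trend and the fit with no block cannot change a difference, so nothing is read from those settings. Averaging probe sets can change only VCAN, which was not tested under that rule, and its averaged difference was not computed. Its second probe set had smaller differences, −1.06, 0.0031 and −0.07 for ES-2, OVCAR-3, then SKOV-3. The brighter one had −1.88, −0.37 and −0.76. Leaving out 1 line moved the means to −0.07 to 1.18 for FN1, 0.39 to 1.70 for FBN1, −1.56 to −0.82 for BGN, −1.32 to −0.57 for VCAN, −1.66 to 0.40 for THBS1 and −0.81 to 1.30 for SPP1. The transfection calls were 1 to 4 genes when a line was left out (4 without SKOV-3). The counts of genes past 2-fold changed with the filter, as did the number of genes tested, and the cause was not tested. Without a filter (14884 genes), 134 genes in ES-2 and 129 in OVCAR-3 were past 2-fold, against 58 and 58 of 8620 in the main fit. The counts were 32 and 34 with a mean of 6 or more. With that stricter filter FBN1, VCAN and THBS1 were not tested, so 3 of the 6 genes were called for ES-2 against OVCAR-3 and 0 for OVCAR-3 against SKOV-3. Of the list genes, 20 were then called for ES-2 against SKOV-3 and 25 for OVCAR-3 against SKOV-3. With the mean over probe sets VCAN was not tested, and 0 of the 6 were called between OVCAR-3 and SKOV-3. Leaving out single arrays gave 808 to 1409 genes and 2 to 4 of the 6 for that pair of lines, and the cause was not tested.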
